A study of Arabidopsis thaliana with 26 samples.

Results

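Translation begins when a small ribosomal subunit, loaded with initiation factors, is recruited to the capped end of an mRNA, scans to the start codon and is joined by the large subunit. Initiation factor 4A (eIF4A) is a DEAD-box RNA helicase of the cap-binding complex that unwinds the leader of the mRNA, and the ribosomal proteins are the structural components of both subunits. In plant roots, genes of the translation machinery are among the most strongly transcribed genes, and their activity follows the supply of nutrients.

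Genes were chosen by name, as those whose symbol or synonym begins with RPL, RPS, RPP or eIF followed by a digit and which lie on 1 of the 5 nuclear chromosomes. Such a name was carried by 90 genes in the gene table. In the annotation used here 2 of them were paired with a probe set, of 13356 genes so paired in the whole series. These were EIF4A-2 (AT1G54270), which codes for a form of eIF4A, and AT1G77750, whose synonym is RPS13, the name of a small-subunit protein. The sources used here do not say whether the protein of AT1G77750 belongs to the cytosolic ribosome, which the pathway above describes, or to that of an organelle. Both lie on chromosome 1 by the TAIR10.1 gene table, with no build given for the arrays. The other 88 genes lacked this pairing and were not analysed here. The values below thus describe 1 initiation factor and 1 ribosomal protein and not the families as a whole. Genes called measured are those with such a pairing, and the array may also hold probe sets for others. Of the 90 names, 11 belong to genes of resistance to Peronospora or Pseudomonas syringae that share the letters RPP or RPS, and none of these was among the genes measured. The name RPS13 is carried by 2 genes in the table. Below, RPS13 stands for AT1G77750 only. EIF4A-2 has a close paralog, EIF4A1, and whether its transcripts also bind the probes of EIF4A-2 was not tested.

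The groups were roots transferred to 1 mM KNO3, roots transferred to 1 mM KCl as the mock treatment, and roots harvested at time 0, before the transfer. KNO3 and KCl roots were harvested 3, 6, 9, 12, 15 and 20 min after transfer, with 2 arrays in each of the 13 groups, which the methods call biological replicates. All plants were Arabidopsis of ecotype Columbia, labelled as 14 days old, grown in hydroponics on ammonium succinate and kept for a day without nitrogen in continuous light, so the time 0 and KCl plants shared the nitrogen-free pretreatment of the KNO3 plants. The ATH1 array summarizes the brightness of a group of short oligonucleotides, a probe set, as 1 signal. The signal comes from whole roots, in which fewer cells of a type and less RNA per cell cannot be told apart.

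The 8 arrays at 3 and 6 min stood apart from the other 18. Their bacterial spike-ins, added to the labelled sample, lay between 12.23 and 13.08 in mean log2 signal there and between 9.68 and 10.90 elsewhere. The log2 ratio of the 3′ to the 5′ probe set of actin ranged between -0.08 and 0.37 at 3 and 6 min and between 0.76 and 1.38 otherwise, and that of GAPDH between 0.15 and 0.41 at 3 and 6 min and between -0.41 and 0.06 otherwise. The correlation between replicates had a median of 0.928 in the 4 groups at 3 and 6 min and of 0.962 in the other 9 groups. Array set and time cannot be told apart, so levels are not compared across the sets by a test, while each difference between the salts below lies within a time point. Of 11 root markers 2 were measured, EXPA7 (516 to 1324) and EXPA18 (462 to 1385), both expansins of root hairs. Of 9 leaf markers only RCA, Rubisco activase, was measured. Its signal was 1582 on the first KNO3 array at 15 min and 726 on the second KNO3 array at 12 min, against 155 to 408 on the other 24 arrays.

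Both genes were brightly expressed. The mean log2 signal over the 26 arrays was 11.96 for EIF4A-2 and 10.15 for RPS13, which placed them at the 97.4th and the 87.1th percentile of all probe sets (each percentile is a rank of probe set signal, which depends on the probes as well as on the transcript). Within groups, the SD of log2 signal was 0.14 for EIF4A-2, lower than for all but 10.3% of probe sets, and 0.20 for RPS13, above 28.3% of them.

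EIF4A-2 had a signal of 5332 and 4897 in KNO3 roots at 3 min, against 6543 and 5335 in KCl roots. At 6 min it had 5957 and 6232 in KNO3 roots, against 5984 and 5867 in KCl roots. At 3 min both KNO3 arrays lay below both KCl arrays, by a narrow margin, and at 6 min the salts overlapped. At 9 min EIF4A-2 had 3194 and 3433 in KNO3 roots, against 3276 and 3724 in KCl roots. At 12 min it had 3764 and 2563 in KNO3 roots, against 3639 and 3711 in KCl roots. The second KNO3 array at 12 min was the lowest of all 26 arrays, while the first was above both KCl arrays of that time. At 15 min EIF4A-2 had 3280 and 3847 in KNO3 roots, against 3642 and 3641 in KCl roots. At 20 min it had 3257 and 3245 in KNO3 roots, against 3239 and 3354 in KCl roots. Roots at time 0 had 3295 and 3255, a level within the range of the arrays from 9 to 20 min. The salts overlapped at 5 of the 6 time points, all but 3 min. This count is a description only, since the share of all probe sets with such overlaps was not computed.

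RPS13 had a signal of 933 and 1038 in KNO3 roots at 3 min, against 1066 and 935 in KCl roots. At 6 min it had 1077 and 879 in KNO3 roots, against 767 and 969 in KCl roots. The salts overlapped at both times, and the lowest signal of the series was the first KCl array at 6 min. At 9 min RPS13 had 1272 and 1502 in KNO3 roots, against 1161 and 1273 in KCl roots. At 12 min it had 1154 and 932 in KNO3 roots, against 1435 and 991 in KCl roots. The highest signal of the series was the second KNO3 array at 9 min, and the lowest among the arrays from 9 to 20 min was the second KNO3 array at 12 min. At 15 min RPS13 had 976 and 1270 in KNO3 roots, against 1040 and 1141 in KCl roots. At 20 min it had 1477 and 1281 in KNO3 roots, against 1384 and 1383 in KCl roots. Roots at time 0 had 1462 and 1187. The salts overlapped at all 6 time points, again without a share over all probe sets to set beside it.

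**Figure D1:**
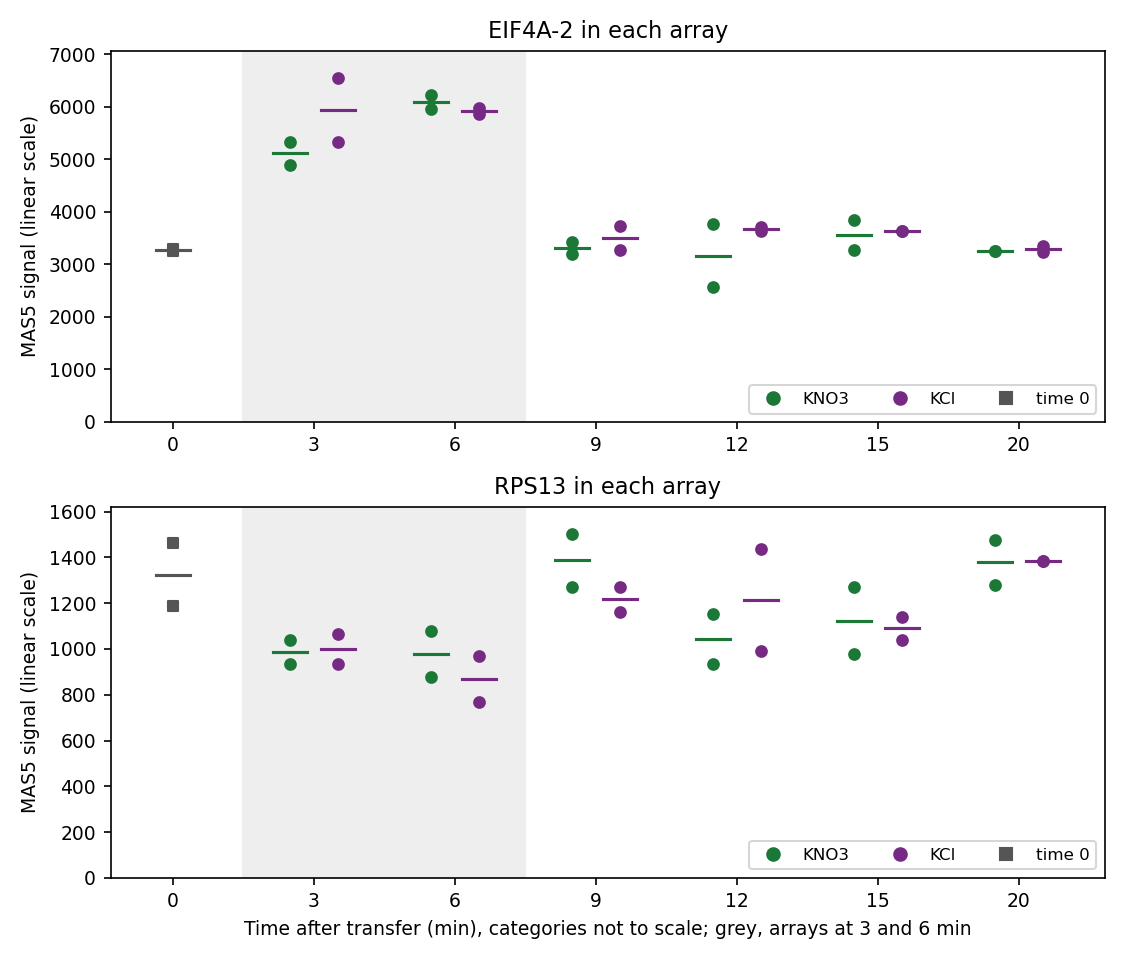
MAS5 signal on a linear scale in each array (points) and the group mean of 2 arrays (bars), for EIF4A-2 above and RPS13 below, at time 0 and at each time after transfer to KNO3 (left of each pair) or KCl. EIF4A-2 lies between 4897 and 6543 on the 8 arrays at 3 and 6 min (grey) and between 2563 and 3847 on the other 18, while RPS13 spans 767 to 1077 on the 8 and 932 to 1502 on the 18.

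Ordered by mean signal, the 4 groups at 3 and 6 min were the 4 highest for EIF4A-2 and the 4 lowest for RPS13. For EIF4A-2 the order began with KNO3 at 6 min (6095 ± 194, SD, n = 2), KCl at 3 min (5939 ± 854), KCl at 6 min (5926 ± 83.3) and KNO3 at 3 min (5114 ± 307). It ended with time 0 (3275 ± 28.4), KNO3 at 20 min (3251 ± 8.52) and KNO3 at 12 min (3163 ± 850). Of the 12 pairs of neighbours in this order, 10 overlapped in their arrays. The exceptions were KNO3 at 3 min against KCl at 6 min and the step down to KCl at 12 min (3675 ± 51.3). For RPS13 the order ran down from KNO3 at 9 min (1387 ± 162) to KCl at 6 min (868 ± 143), and all 12 pairs of neighbours overlapped. Such pairs were not counted over all probe sets, so both counts describe these genes only.

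The level of both genes thus moved with the array set, in opposite directions. The mean log2 signal on the 8 arrays at 3 and 6 min minus that on the 16 arrays from 9 to 20 min was 0.75 for EIF4A-2, against a median of 0.21 over all probe sets, and it was -0.35 for RPS13. These differences were at the 71.2th and the 21.7th percentile of all probe sets, so shifts of this size were common. After quantile normalization they were 0.70 for EIF4A-2 and -0.22 for RPS13. The rank of EIF4A-2 among the probe sets of an array was between the 97.6th and 98.7th percentile on the 8 arrays and between the 94.8th and 97.1th on the other 18, without overlap. That of RPS13 was between 80.6 and 86.8 on the 8 and between 83.3 and 89.8 on the 18. The part of the array set in these shifts was not tested, and they are given as a description only.

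The question of the time course was which transcripts responded to nitrate within minutes. Neither gene was called different between KNO3 and KCl at any time point by limma at a Benjamini-Hochberg adjusted p under 0.05. EIF4A-2 was lower in KNO3 roots at 5 of the 6 time points by the estimate, and RPS13 at 3 of 6, all within the error. At 3 min, 0 of the 2 genes were called, where 2.28% of all probe sets were. The log2 difference, KNO3 minus KCl, was -0.21 for EIF4A-2 (SE 0.14, 95% interval -0.51 to 0.09, limma adjusted p = 0.525). It was -0.02 for RPS13 (SE 0.18, 95% interval -0.40 to 0.36, adjusted p = 0.977). The interval of EIF4A-2 at 3 min reached further below 0 than above it, and that of RPS13 was nearly centred on 0.

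At 6 min, 0 of the 2 genes were called, where 0.413% of all probe sets were. The log2 difference was 0.04 for EIF4A-2 (95% interval -0.26 to 0.34) and 0.17 for RPS13 (-0.20 to 0.55). At 9 min, with 0.396% of all probe sets called and neither gene among them, it was -0.08 for EIF4A-2 (-0.37 to 0.22) and 0.18 for RPS13 (-0.19 to 0.56). At both times the interval of each gene covered the estimate of the other. At 6 min the order of the estimates depended on single arrays, since RPS13 had 0.01 and EIF4A-2 0.05 without the first KCl array, and RPS13 had 0.03 and EIF4A-2 0.07 without the first KNO3 array.

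At 12 min, 0.69% of all probe sets were called and neither gene was. EIF4A-2 had its lowest estimate here, -0.24 (SE 0.14, 95% interval -0.54 to 0.05, limma adjusted p = 0.540), and RPS13 had its lowest too, -0.20 (SE 0.18, -0.58 to 0.18, adjusted p = 0.745). Both depended on the second KNO3 array, the lowest for EIF4A-2 and the one with an RCA signal of 726. Without that array the differences were 0.03 for EIF4A-2 and -0.05 for RPS13. Over the 4 fits that left out 1 array of this time, RPS13 ranged from -0.47, without the second KCl array, to 0.07, without the first KCl array, and it was called in none of them. With it as the only KNO3 array of that time, EIF4A-2 was called, at a log2 difference of -0.52 and a limma adjusted p of 0.048, in a fit that assumes the lone array varied like the other groups. The part of leaf RNA in the signals of this array was not tested.

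At 15 min, 1.2% of all probe sets were called, and the log2 difference was -0.04 for EIF4A-2 (95% interval -0.33 to 0.26) and 0.03 for RPS13 (-0.35 to 0.41). Without the first KNO3 array, the one with the highest RCA signal, it was 0.08 for EIF4A-2 and 0.22 for RPS13. Without the second KNO3 array it was -0.15 for EIF4A-2 and -0.16 for RPS13, and neither gene was called in either fit. At 20 min, 0.743% of all probe sets were called, and the difference was -0.02 for EIF4A-2 (-0.32 to 0.28) and -0.01 for RPS13 (-0.39 to 0.37). Neither gene was called at 15 or 20 min, and the estimates of both were nearest to 0 at 20 min.

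**Figure D2:**
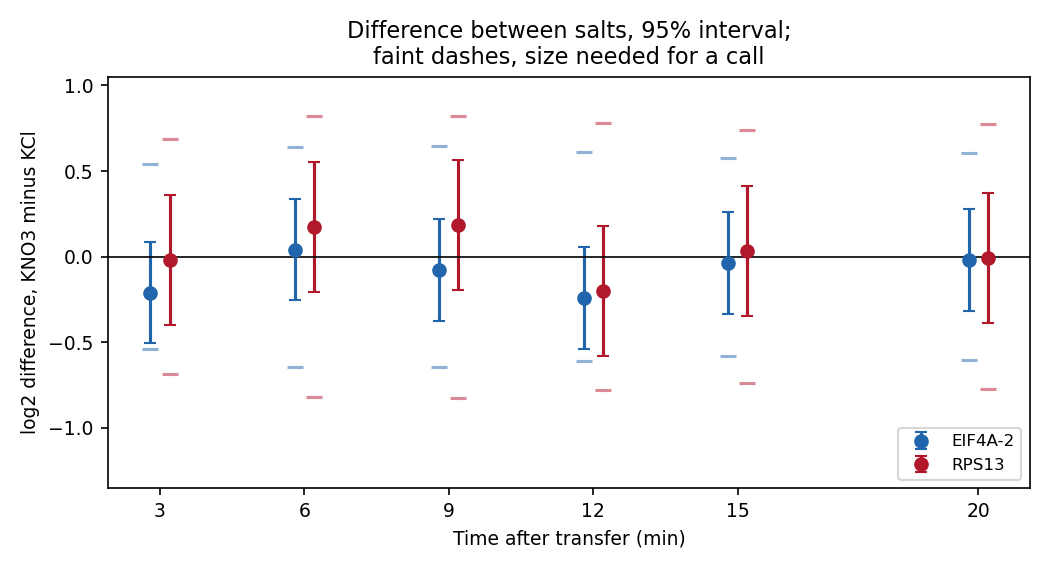
Log2 difference between KNO3 and KCl roots at each time after transfer for EIF4A-2 and RPS13, with points for the limma estimate, bars for its 95% interval and faint dashes for the size that a call at an adjusted p under 0.05 would have needed. Every interval covers 0 and no point reaches the dashes, which lie between 0.54 and 0.64 for EIF4A-2 and between 0.69 and 0.82 for RPS13.

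The size that a call would have needed bounds what could be seen. With the spread of each gene and the p of the last probe set called in each comparison, a log2 difference of 0.54 to 0.64 was needed for EIF4A-2 and of 0.69 to 0.82 for RPS13 at single time points. The 95% intervals over the 6 time points lay between -0.54 and 0.34 for EIF4A-2, which is 0.688 to 1.26 times the KCl level, and between -0.58 and 0.56 for RPS13, which is 0.669 to 1.48 times. At a single time point, with 2 arrays in each group, a difference smaller than the size needed could not have been called.

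Over 9 to 20 min together, with 8 arrays for each salt, 0 of the 2 genes were called, where 1.97% of all probe sets were. EIF4A-2 had a geometric mean of 3301 in KNO3 roots and of 3523 in KCl roots, a log2 difference of -0.09 (SE 0.07, 95% interval -0.24 to 0.05, limma adjusted p = 0.718). RPS13 had 1217 in KNO3 roots and 1216 in KCl roots, a log2 difference of 0.00 (SE 0.09, -0.19 to 0.19, adjusted p = 0.998). A difference of 0.27 for EIF4A-2 and of 0.35 for RPS13 would have been called here. Leaving out both arrays with the highest RCA signal, the difference was 0.00 for EIF4A-2 and 0.09 for RPS13.

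Whether the later difference between the salts was another than that at 3 min was tested as an interaction, which called 1.03% of all probe sets and neither gene. The later difference minus that at 3 min was 0.12 for EIF4A-2 (95% interval -0.22 to 0.45, limma adjusted p = 0.851) and 0.02 for RPS13 (-0.40 to 0.45, adjusted p = 0.982).

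The transfer itself was examined by setting each salt from 9 to 20 min against time 0, in 2 comparisons that share the time 0 arrays. In KNO3 roots 1.1% of all probe sets were called and neither gene. EIF4A-2 had a geometric mean of 3301 in KNO3 roots against 3275 at time 0 (log2 difference 0.01, 95% interval -0.22 to 0.25), and RPS13 had 1217 against 1317 (-0.11, -0.41 to 0.18). In KCl roots 0.585% of all probe sets were called and neither gene. EIF4A-2 had 3523 in KCl roots against 3275 at time 0 (0.11, -0.13 to 0.34), and RPS13 had 1216 against 1317 (-0.12, -0.41 to 0.18). RPS13 had nearly the same estimate against the shared time 0 arrays in both salts, within an error larger than the estimate. Both estimates moved with single time 0 arrays. Without the first they were 0.04 in KNO3 roots and 0.03 in KCl roots, and without the second -0.26 and -0.27.

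Over these 10 comparisons neither gene had an unadjusted p under 0.05 from limma, the smallest being 0.103 for EIF4A-2 and 0.281 for RPS13, both at 12 min. In the linear model of the methods, which first selects probe sets on an effect of the salt or its interaction with time, 2162 probe sets were kept and neither gene was among them. The absolute difference between the salts was below the median of all probe sets in all comparisons, at most at the 47.4th percentile for EIF4A-2 (12 min) and at the 45.5th for RPS13 (9 min). The median over both genes was -0.12 at 3 min, beside -0.03 over all probe sets, and -0.05 from 9 to 20 min, beside -0.02.

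The study lists 8 genes of ribosomal proteins and initiation factors among those regulated at 3 min. Of these, 5 were paired with a probe set in the annotation used here. The rest lacked this pairing, although the study called them from the same arrays. Among these unpaired genes, RPL18 and EIF3K do carry a symbol of the chosen form in the gene table. The paired genes carry no such symbol and are named as in the study's list. They were chosen on the 3 min difference of these arrays, so their 3 min values are a description. The 40S protein S3A (AT3G04840) had a signal of 9546 and 10980.5 in KNO3 roots at 3 min, against 7981 and 7136 in KCl roots. The 40S protein S14, RPS14B (AT3G11510), had 13279 and 14175 in KNO3 roots, against 10446 and 10978 in KCl roots. In all 5 genes both KNO3 arrays lay above both KCl arrays at 3 min, a count that their choice favours. The share of all probe sets so separated was not computed. The log2 difference at 3 min was 0.44 for S3A, 0.36 for RPS14B, 0.31 for RPS8A (AT5G20290), 0.29 for RPL30B (AT1G77940) and 0.20 for the acidic stalk protein RPP2A (AT2G27720). The values of EIF4A-2 (-0.21) and RPS13 (-0.02) at 3 min lay below all 5. The names of the 5 are those of cytosolic subunits (40S and 60S), and RPS13 may not belong to the same ribosome. None of the 5 was called in the fit over all probe sets, in which S3A came nearest (limma adjusted p = 0.059). The study called them by another model, on probes first selected for an effect of the salt, with time 0 as the baseline. That model was run here, but its result was taken for EIF4A-2 and RPS13 only. From 9 to 20 min the differences of the 5 were 0.04 to 0.10, beside -0.09 for EIF4A-2 and 0.00 for RPS13.

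**Figure D3:**
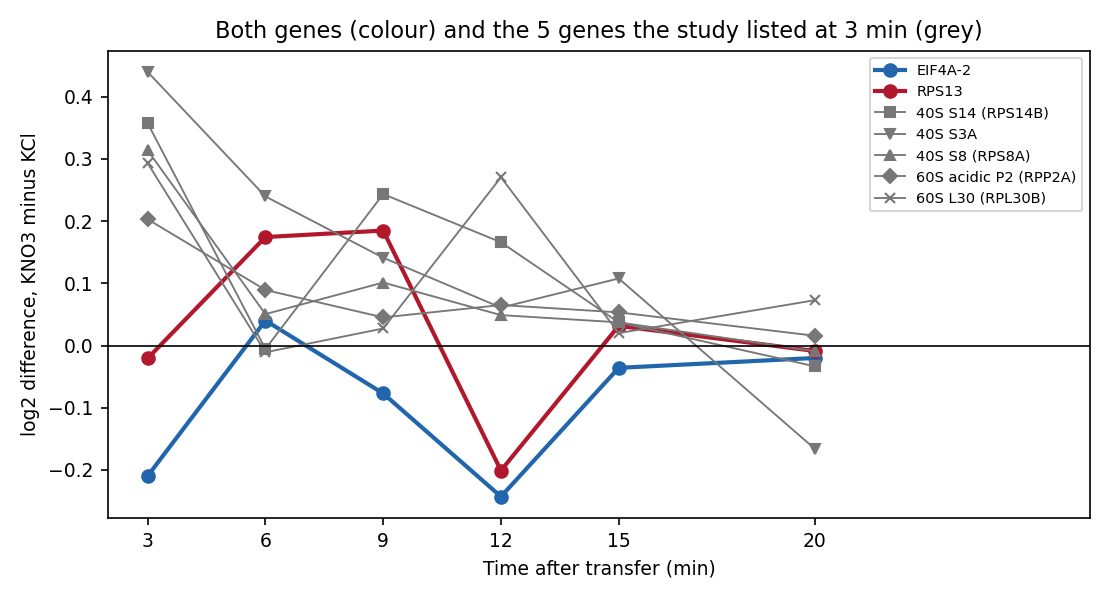
Log2 difference between KNO3 and KCl roots at each time after transfer for EIF4A-2 and RPS13 (colour) and for the 5 measured ribosomal protein genes that the study listed at 3 min (grey). At 3 min the 5 lie between 0.20 and 0.44 and both coloured points lie below 0, and at 20 min all 7 lie between -0.17 and 0.07.

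The plastid genome has ribosomal protein genes of its own, which the choice by nuclear chromosome left out, and 15 of them had a probe set. This list was formed after the annotation was seen. At 3 min 13 of the 15 were above 0 in KNO3 minus KCl, with a median of 0.51 (range -0.10 to 1.31) beside -0.03 over all probe sets. At 6 min 15 of 15 were, with a median of 0.35 beside -0.05. The share of all probe sets above 0 was not computed. The 15 were read on the same arrays and are not separate observations, and the SE at 3 min was as wide as 0.58 (rpl14). None was called at any time point or in the mean over 9 to 20 min, whose median was 0.20 (range -0.12 to 0.52). In KNO3 roots from 9 to 20 min against time 0, where 1.1% of all probe sets were called, 2 of the 15 rose and none fell by the limma test, rps15 (log2 difference 1.42, SE 0.34, adjusted p = 0.048) and rpl20 (1.1, SE 0.26, adjusted p = 0.042), proteins of the small and the large plastid subunit. In KCl roots against the same time 0 arrays the log2 difference was 1.19 for rps15 (SE 0.34, adjusted p = 0.177) and 1.01 for rpl20 (SE 0.26, adjusted p = 0.104), and none of the 15 was called. KNO3 minus KCl from 9 to 20 min was 0.23 for rps15 (SE 0.22, adjusted p = 0.805) and 0.09 for rpl20 (SE 0.17, adjusted p = 0.912), so no difference between the salts was detected for either. Without both arrays of highest RCA signal the differences between KNO3 roots and time 0 were 1.53 for rps15 (adjusted p = 0.017) and 1.28 for rpl20 (adjusted p = 0.0014). Of the 10 fits that left out 1 array, 2 called rps15 (1.21 to 1.62, adjusted p between 0.0086 and 0.776) and 3 called rpl20 (0.91 to 1.29, adjusted p between 0.00055 and 0.766), so most arrays, those of time 0 included, were needed for either call. EIF4A-2 had 0.01 and RPS13 had -0.11 in KNO3 roots against time 0. The plastid transcripts varied widely between arrays, with a mean log2 signal over the 15 of 8.27 to 10.23 at 3 and 6 min and of 8.97 to 10.20 on the other arrays.

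Of 54 genes of the wider translation pathway listed by locus, 10 were measured and none was called in any of the 10 comparisons. They were 2 of 14 elongation and termination factors, 2 of 9 genes of TOR and S6 kinase signalling and 6 of 20 of ribosome biogenesis, and none of 8 poly(A)-binding proteins or of 3 genes of the RACK1 scaffold. TOR kinase adjusts growth and translation to nutrients, and RAPTOR is its regulatory partner. RAPTOR1 had a log2 difference of -0.10 (SE 0.20) and RAPTOR2 of 0.42 (SE 0.40) at 3 min. PESCADILLO (AT5G14520), known in yeast and animals for maturation of the large subunit, had 0.37 (SE 0.22). At 3 min 6 of the 10 genes were above 0, with a median of 0.24 beside -0.03 over all probe sets, and the ribosome biogenesis genes were above 0 in 5 of 6 cases, with a median of 0.39. The nearest to a call was AT1G52930 of that list (0.54, SE 0.15, limma adjusted p = 0.069). From 9 to 20 min the median over the 10 genes was 0.02, with values from -0.14 to 0.10.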

How the data were processed

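The deposited values are MAS5 signal intensities of 26 ATH1 arrays, not log-transformed. Their trimmed mean (2% off each tail) was 500.0 throughout, whereas the methods give a target for the median, so the scale of the levels differs from the stated one. A factor shared by all arrays would leave log2 differences unchanged. The median signal varied between arrays, however, from 220 to 285 at 3 and 6 min and from 207 to 227 otherwise. Scaling to a common median would thus shift log2 differences, and it was not run, though quantile normalization was.

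The file held 22810 probe sets, of which 64 were controls, and 22746 were tested. In R 4.3.3, limma 3.58.1 was run on log2 signals with 1 term for each of 13 groups, moderated by eBayes along the intensity trend (13 residual degrees of freedom and 7.41 prior ones). Calls were made at 0.05 after Benjamini-Hochberg adjustment over all probe sets of a comparison. The script was tested on simulated data.

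A single gene was annotated for 13513 probe sets, more than 1 for 503 and no gene for 8730. Names were updated through the TAIR10.1 gene table. For a gene with several probe sets the brightest was to be taken, and each gene here had 1. The rule for names printed was every gene called at a time point and, in each role class, the brightest and the one with the largest difference at 3 min, which names both. The genes and lists were chosen with earlier results of these data known. The highest correlation between any 2 arrays was 0.973, and all 26 were used. Arrays give no read depth, so precision depends on how many there are.

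Alternatives were a fit with no intensity trend, the dimmest 40% of probe sets left out, 32 added before log2, quantile normalization, replicate number as a block, array sets or time points alone, the linear model of the methods, with its selection at an unadjusted p of 0.01, shared probe set types left out, and each array left out. Leaving out both arrays with the highest RCA signal, and the fits without an array for the plastid genes, were chosen after seeing the data.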

Additional observations from a re-analysis of the deposited data

How the results depend on the processing

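Neither EIF4A-2 nor RPS13 was called in the 10 comparisons under any alternative but 1. That was KNO3 minus KCl at 12 min without the first KNO3 array, in which 1 gene was called, EIF4A-2 (log2 difference -0.52, limma adjusted p = 0.048). Over the 4 fits of that comparison that left out 1 array, the number of genes called ranged from 0 to 1, the difference of EIF4A-2 from -0.52 to 0.03 and that of RPS13 from -0.47 to 0.07. At 15 min the median over both genes was 0.15 without the first KNO3 array and -0.15 without the second. The difference of RPS13 at 3 min, -0.02, changed sign without the first KCl array (0.074) and without the first KNO3 array (0.057), and over its 4 such fits it ranged from -0.12 to 0.074. That of EIF4A-2 at 3 min ranged from -0.36 to -0.06 and kept its direction. The cause of these changes was not tested, beyond the fewer arrays of each fit. With the replicate block the differences at 3 min were -0.21 for EIF4A-2 (limma adjusted p = 0.521) and -0.02 for RPS13 (adjusted p = 0.977), and the block called neither gene in any comparison. Over all probe sets, replicates of the same number did not deviate together, with correlations of -0.05 to 0.03 between the salts over the 6 time points. The labels do not say whether they were grown or harvested together, and these correlations cannot decide it. No member lay on a probe set of the types left out, so that alternative changed nothing.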
